A study of Mus musculus with 23 samples.

Results

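The genes described here are 10 transcription regulators listed as negative regulators of myelination by Schwann cells (SCs), the glia of peripheral nerve. They are Sox2, Sox4 and Sox11 of the SOX family, Pax3, the inhibitors of DNA binding Id1, Id2, Id3 and Id4, and the early growth response factors Egr1 and Egr3. This role is not equally established for each gene and was not tested here. The 10 genes were taken by name. All 10 were found among the 43068 genes listed in the crush experiment and the 22880 listed in the inducible knockout (iKO) experiment. RNA sequencing was done on whole sciatic nerves (SNs) of adult mice. In the crush experiment, SNs of 2-month-old male C57BL/6J mice were taken at 3 days post crush (dpc) from the 7 mm below the injury (crushed, n = 4), from the uninjured opposite side (contralateral, n = 4) and from mice without injury (uncrushed, n = 3). In the iKO experiment, Dicer1 flox/flox or Dgcr8 flox/flox mice of either gender carrying a tamoxifen-inducible CreERT2 transgene (Dicer iKO, n = 3; Dgcr8 iKO, n = 3) were set against Cre-negative flox/flox mice (Dicer control, n = 3; Dgcr8 control, n = 3).

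All iKO and control mice received tamoxifen on 5 consecutive days at 8 to 10 weeks of age, and their SNs were collected at 3 months post tamoxifen (mpT). The Cre driver is active in myelinating SCs, so the other cells of the nerve kept both alleles. Penetrance was incomplete, and the mutants studied were restricted to affected mice. Each library came from 1 mouse. Contralateral SNs were the uninjured opposite nerves of crushed mice, so these groups share animals. The main tests did not pair them, and the replicate numbers of crushed and contralateral SNs are not stated to mark the same animal. The p-values below measure the spread between libraries, which in the other comparisons is the spread between mice. Where groups are described as apart or without overlap, the share of all genes that separate in this way was not counted. With 3 or 4 libraries per group, such separation is a description and not a test. Libraries held 6617716 to 12806066 counts in the crush experiment and 5594859 to 10143244 in the iKO experiment, so that 3 counts corresponded to 0.234 to 0.453 and 0.296 to 0.536 CPM, counts scaled to the library size. The 6 SC markers were present in all groups. The summed level of 8 macrophage markers was 691 to 1679 CPM in crushed against 84.4 to 152 CPM in contralateral SNs, 3593 to 6567 against 266 to 892 CPM in Dicer iKO and controls, and 2379 to 5673 against 249 to 294 CPM in Dgcr8 iKO and controls, and no macrophage marker was at 0. The 6 proliferation markers summed to 791 to 1190 CPM in crushed, 17.0 to 32.1 CPM in contralateral, 75.8 to 113 CPM in Dicer iKO, 5.70 to 14.2 CPM in Dicer control, 209 to 314 CPM in Dgcr8 iKO and 8.21 to 11.7 CPM in Dgcr8 control SNs. The part of infiltrating or dividing cells in the results below was not tested, and in whole nerve fewer cells of a type and less RNA per cell cannot be told apart.

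SCs myelinate when SOX10 and POU3F1 (OCT6) switch on EGR2 (KROX20), which drives the genes of myelin proteins and lipids. Immature SCs express factors that oppose this step. SOX2 and PAX3 mark immature and dedifferentiated SCs, SOX4 and SOX11 are SOXC factors of progenitor cells, and enforced SOX2 or SOX4 delays or blocks myelination. Id proteins lack a DNA-binding domain and capture the E proteins TCF3, TCF4 and TCF12, whereas EGR1 and EGR3 are immediate early relatives of EGR2 found in immature and injured SCs. Dgcr8 is the RNA-binding subunit of the microprocessor and Dicer cuts the precursors that it releases, so both genes are needed for most microRNAs (miRNAs).

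The promoters of Sox2 and Sox4 are shown because both genes were higher in all 3 injured or miRNA-depleted settings and because their sequences differ in make-up. RefSeq windows were at hand for 6 of the 10 genes (Sox2, Sox4, Sox11, Id2, Id3 and Id4). Each sequence reads 5′ to 3′ towards the transcript start, with capitals marking matches to CCAAT or GGGCGG (GC box) on either strand; the Sox4 window of 250 bases was cut to the 236 bases outside the annotated exon.
Sox2, GRCm38.p6 chr3:34649745-34649994, plus strand: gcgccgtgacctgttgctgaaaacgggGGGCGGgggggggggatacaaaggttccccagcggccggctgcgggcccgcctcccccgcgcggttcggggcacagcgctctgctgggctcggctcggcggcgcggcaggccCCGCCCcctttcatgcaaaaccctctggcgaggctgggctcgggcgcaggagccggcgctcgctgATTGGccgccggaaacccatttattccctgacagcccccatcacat
Sox4, GRCm38.p6 chr13:28953714-28953949, minus strand: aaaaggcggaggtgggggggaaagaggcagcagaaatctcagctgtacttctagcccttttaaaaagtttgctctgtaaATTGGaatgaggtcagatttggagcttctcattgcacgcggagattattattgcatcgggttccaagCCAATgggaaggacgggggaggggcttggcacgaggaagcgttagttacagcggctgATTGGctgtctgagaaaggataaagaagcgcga
The Sox2 window was 72% G or C with 1 CCAAT and 2 GC-box matches, and the 250-base Sox4 window was 50.8% G or C with 4 CCAAT matches, 3 of them shown, and no GC-box match. The median over 32851 promoter windows of the same length was 52.4%. CCAAT was found in 33.9% of those windows and GGGCGG in 32.7%. Id2 had 3 CCAAT matches and 1 GC-box match, Id4 had 2 and 5, Sox11 had 1 and 2, and Id3 had 0 and 2, which overlap each other. The Id2 and Id3 windows lie within the annotated spans of these genes and were not cut, so they are not wholly upstream sequence. The letters CANNTG (E-box, the E-protein motif) were found once in Sox4, at 2 places in Sox11 and once in Id2, against 66.2% of all windows. GGAATG (the TEAD motif) was found once in Sox4, Id3 and Id4, against 12.6% of all windows, and the Sox4 match overlapped a CCAAT match. The AP-1 motif TGANTCA had no match in the 6 windows and was found in 6.75% of all windows. The TATA box TATAAA also had no match, against 12.4% of all windows, nor had the EGR motif GCGTGGGCG, against 0.536%.

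As Dicer and Dgcr8 are needed to make miRNAs, the seeds of 3 miRNAs with described roles in SCs were also searched for in the longest annotated 3′ UTR (GENCODE M21, GRCm38) of each gene. Seeds (bases 2 to 8) are in capitals in the mature miRNAs (RefSeq), and their matches are in capitals in the sites.
let-7f-5p: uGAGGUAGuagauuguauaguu
miR-138-5p: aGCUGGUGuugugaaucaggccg
miR-34a-5p: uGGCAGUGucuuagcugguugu
Sox4 site for miR-138-5p, chr13:28950427-28950448, minus strand: tacaacgaaccgatCACCAGCt
Sox4 site for miR-34a-5p, chr13:28948997-28949018, minus strand: ctaatcctgtccgtCACTGCCt
Id4 site for miR-138-5p, chr13:48262955-48262976, plus strand: tgcggccgcctgagCACCAGCg
Egr3 site for let-7f-5p, chr14:70081402-70081423, plus strand: cgcacctccctgccCTACCTCa
Sox11 held 1 match for miR-138-5p and 1 for miR-34a-5p. Sox2, Pax3, Id1, Id2, Id3 and Egr1 held no match for these 3 seeds. Matches of this kind were common: CACCAGC was found in 21.1% of UTRs as long as that of Sox4, CACTGCC in 26.2% of them, CACCAGC in 23.6% of UTRs as long as that of Id4 and CTACCTC in 14.3% of UTRs as long as that of Egr3. A match describes letters only and is not evidence of binding.

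**Figure D1:**
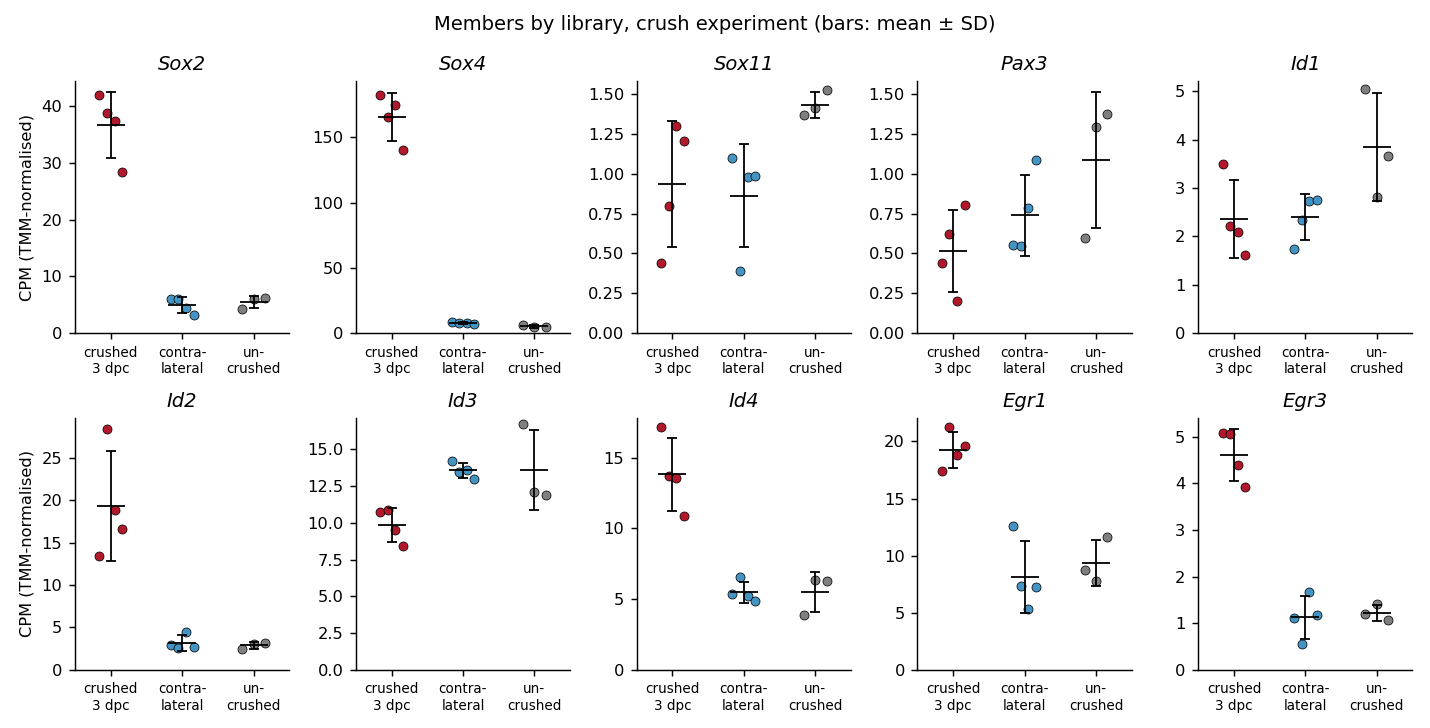
Levels of the 10 genes in each SN of the crush experiment, in CPM, with 1 point per library, for uncrushed, contralateral and crushed SNs. Crushed SNs stand above all others for Sox2, Sox4, Id2, Id4, Egr1 and Egr3 and below all others for Id3, whereas Sox11, Pax3 and Id1 overlap with the contralateral SNs.

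Id3 led the members in every uninjured control group. Levels of different genes were compared in TPM, the RSEM abundance corrected for transcript length, rescaled here to the protein-coding genes of each library. Contralateral SNs held 34.5 TPM of Id3, clear of all other members, followed by Id4 at 9.5 TPM, Id2 at 7.3 TPM, Id1 at 7.2 TPM, Egr1 at 7.1 TPM, Sox2 at 6.9 TPM and Sox4 at 4.4 TPM. Neighbours in this order from Id4 to Sox4 overlapped between mice, so that their order was not resolved. Egr3 (2.4 TPM), Pax3 (0.6 TPM) and Sox11 (0.3 TPM) were the lowest. In the iKO controls, Id3 (73.7 TPM in Dicer control, 60.8 TPM in Dgcr8 control) was followed by Id1 (36.5 and 34.6 TPM), and Egr1 measured 18.5 and 10.8 TPM. In crushed SNs, Sox4 moved from seventh place to the top at 88.4 TPM (range 79.7 to 98.6), above Sox2 at 47.0 TPM (39.1 to 54.6). Sox2 and Id2 (41.4 TPM) overlapped, Id3 followed at 22.8 TPM and overlapped with Id4 at 22.2 TPM, and Egr1 (15.6 TPM), Egr3 (8.8 TPM) and Id1 (7.1 TPM) came after.

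Crush injury raised 6 of the 9 members that could be tested against the contralateral side at an adjusted p of at most 0.05 and at least 2-fold, and lowered none to this extent. Over all 16667 genes tested, 14.6% were called higher and 13.6% lower by the same rule. The median log2 fold change was 1.19 over the 9 members and -0.06 over all genes. Sox4, Egr3, Sox2, Id2, Id4 and Egr1 made up the 6, and Id3 fell by less than 2-fold. Pax3 did not pass the filter on low counts.

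Sox4, the SOXC factor, showed the largest rise of the members. It measured 183, 165, 175 and 140 CPM in crushed SNs, 8.18, 8.01, 7.34 and 6.80 CPM in contralateral SNs and 6.49, 4.94 and 4.27 CPM in uncrushed SNs. Every crushed SN lay more than 10-fold above every control. The log2 fold change was 4.31 against contralateral SNs (SE 0.10, edgeR quasi-likelihood test, adjusted p = 4.07e-13), that is 19.8-fold, and 4.83 against uncrushed SNs (adjusted p = 2.25e-10). Sox2, which keeps SCs immature, measured 42.1, 38.9, 37.4 and 28.5 CPM in crushed, 5.97, 6.07, 4.50 and 3.25 CPM in contralateral and 4.27, 6.0 and 6.26 CPM in uncrushed SNs. Its groups were again fully apart, with a log2 fold change of 2.73 against contralateral (SE 0.16, edgeR, adjusted p = 2.53e-09) and 2.64 against uncrushed SNs (adjusted p = 5.04e-08). Sox2 lies within Sox2ot on the same strand, and that transcript averaged 771 counts per crushed and 747 per contralateral library, so reads of the pair may have been shared between them. Sox2ot is not among the genes listed in the iKO experiment.

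Sox11, the second SOXC factor, did not follow Sox4. It measured 0.437, 0.801, 1.30 and 1.204 CPM in crushed and 1.10, 0.389, 0.979 and 0.985 CPM in contralateral SNs. The groups overlapped near the level of 3 counts, with a log2 fold change of -0.01 (SE 0.41, edgeR, adjusted p = 0.978). In uncrushed SNs Sox11 measured 1.37, 1.41 and 1.53 CPM, and the log2 fold change against these was -0.74 (edgeR, adjusted p = 0.113). Pax3, a paired-box factor of neural crest and immature SCs, was at 2 to 8 counts per crushed, 6 to 11 per contralateral and 7 to 11 per uncrushed library, and the filter on low counts kept it out of both crush comparisons. Against uncrushed SNs its log2 fold change was -0.89 without the filter (edgeR, adjusted p = 0.193) and -1.225 with all groups in one fit (adjusted p = 0.0389).

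The Id genes split after crush. Id2 measured 13.4, 28.5, 18.9 and 16.7 CPM in crushed, 2.94, 2.57, 4.50 and 2.66 CPM in contralateral and 2.39, 3.06 and 3.21 CPM in uncrushed SNs. All crushed SNs were above all controls, with log2 fold changes of 2.48 (SE 0.23, edgeR, adjusted p = 2.67e-07) and 2.65 (adjusted p = 2.90e-06). Id4 measured 17.2, 13.7, 13.6 and 10.8 CPM in crushed and 5.33, 6.53, 5.19 and 4.83 CPM in contralateral SNs, again without overlap, and rose by 1.19 on the log2 scale (SE 0.15, edgeR, adjusted p = 8.08e-06). Id3 went the other way. It measured 10.8, 10.9, 9.49 and 8.43 CPM in crushed and 14.2, 13.5, 13.6 and 13.0 CPM in contralateral SNs, with every crushed SN below every contralateral one. The log2 fold change of Id3 was -0.59 (SE 0.11, edgeR, adjusted p = 0.000204). Id1 measured 3.50, 2.22, 2.10 and 1.61 CPM in crushed and 1.75, 2.33, 2.74 and 2.76 CPM in contralateral SNs, which overlapped, with a log2 fold change of -0.15 (SE 0.26, edgeR, adjusted p = 0.635).

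Both EGR factors rose. Egr1 measured 17.4, 21.3, 18.8 and 19.6 CPM in crushed, 12.6, 7.31, 5.29 and 7.29 CPM in contralateral and 8.72, 7.77 and 11.6 CPM in uncrushed SNs. The log2 fold change of Egr1 was 1.11 against contralateral (SE 0.19, edgeR, adjusted p = 0.000152) and 0.94 against uncrushed SNs (adjusted p = 0.000147), the second just under 2-fold. Egr3 measured 5.07, 5.07, 4.39 and 3.91 CPM in crushed, 1.10, 0.544, 1.66 and 1.18 CPM in contralateral and 1.196, 1.41 and 1.07 CPM in uncrushed SNs. No crushed SN overlapped with a control for either gene, and Egr3 rose by 1.93 (SE 0.26, edgeR, adjusted p = 1.37e-05) and 1.78 (adjusted p = 3.81e-05) on the log2 scale. Their relative Egr2, the driver of myelination, fell by 2.69 against contralateral and by 2.59 against uncrushed SNs. The ratio of Egr1 to Egr2 in TPM lay at 0.713 to 1.03 in crushed and at 0.0385 to 0.146 in contralateral SNs.

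Against uncrushed SNs, 5 of the 9 members tested were called higher and 0 lower, where 15.3% of 17477 genes were called higher and 21.1% lower. The median over the members was 1.248 on the log2 scale, against -0.03 over all genes. Id3 fell by 0.59 (edgeR, adjusted p = 0.00448) and Id1 fell by 0.83 (adjusted p = 0.0251), both by less than 2-fold. The Id1 call was lost without crushed replicate 2, 3 or 4 (log2 fold changes of -0.81, -0.79 and -0.73) and without uncrushed replicate 1 (-0.52, adjusted p = 0.189). Crushed SNs are shared with the contralateral comparison above.

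The contralateral nerve did not differ from the uncrushed nerve in any member by the edgeR test, in which 0.00% of 17722 genes were called higher and 0.00% lower. DESeq2 also called 0 of the 10 members. At an unadjusted p under 0.05, 2 members differed, Id1 with a log2 fold change of -0.78 (adjusted p = 0.186) and Sox4 with 0.43 (adjusted p = 0.233). The contralateral Sox4 values (6.80 to 8.18 CPM) lay above the uncrushed ones (4.27 to 6.49 CPM), and the contralateral Id1 values (1.75 to 2.76 CPM) lay below the uncrushed ones (2.82 to 5.04 CPM). Sox11 also lay below without overlap (0.389 to 1.10 against 1.37 to 1.53 CPM), with an adjusted p of 0.313. Over all genes, 1004 were higher and 2160 lower at an unadjusted p under 0.05.

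**Figure D2:**
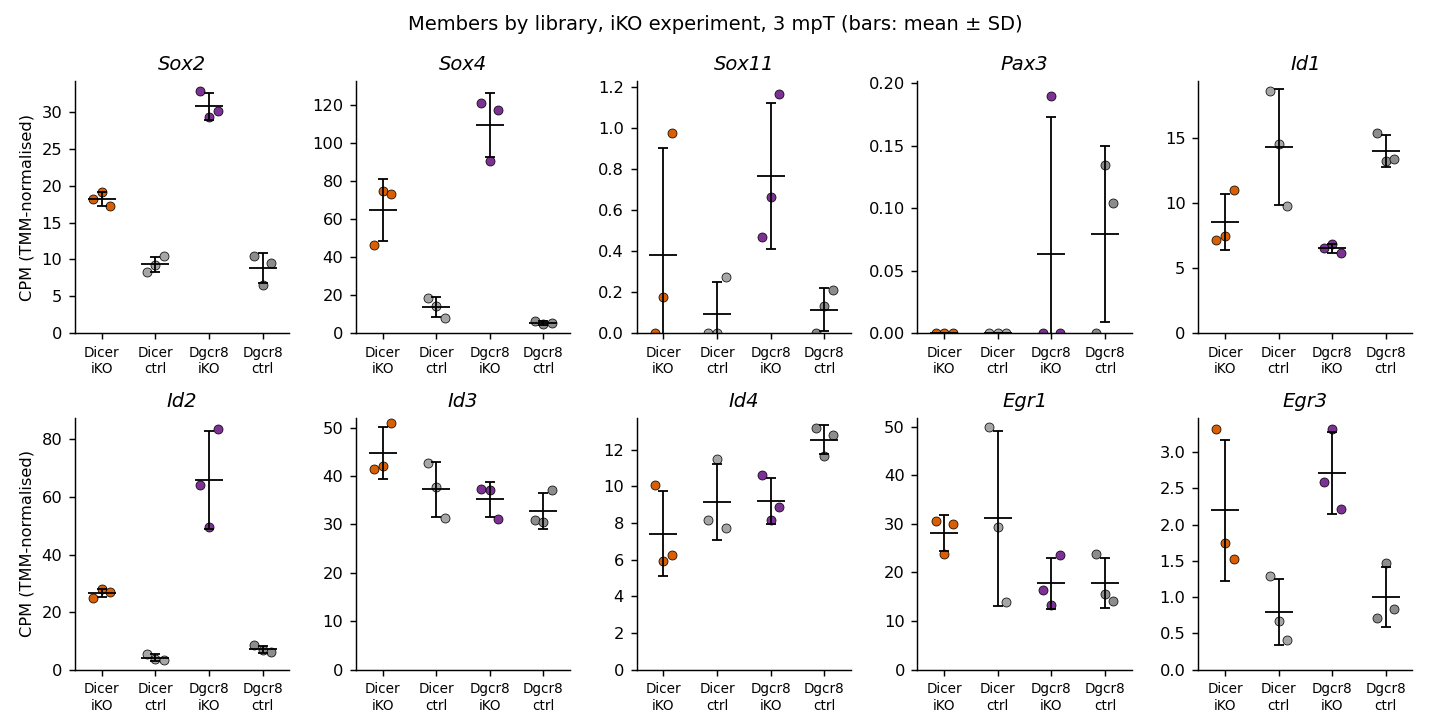
Levels of the 10 genes in each SN of the iKO experiment, in CPM, with 1 point per library, for Dicer iKO, Dgcr8 iKO and the controls of each. Sox2, Sox4, Id2 and Egr3 stand above their controls in both iKO lines. In Dgcr8 iKO, Id1 and Id4 stand below the controls, and Sox11 stands above them at few counts.

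The iKO experiment asked whether adult SCs need the miRNA pathway at 3 mpT. The targeted genes were read first. Dicer1 measured 81.0, 82.8 and 82.4 CPM in Dicer iKO and 88.0 to 91.0 CPM in control SNs (log2 fold change -0.11, edgeR, adjusted p = 0.357). Dgcr8 measured 39.3 to 53.7 CPM in Dgcr8 iKO and 34.9 to 41.9 CPM in control SNs (0.22, adjusted p = 0.233). These totals run over all exons and all cells of the nerve and hold no value for the floxed exons alone, so they do not check the excision. By PCR at the same time after tamoxifen, the study reports reduced mRNA of the targeted gene in each line. It also reports reduced levels of an abundant miRNA of adult SNs in both lines. Whether the sequenced mice were among those measured by PCR is not stated.

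In Dgcr8 iKO, 4 of the 8 members tested were called higher and 1 lower, where 13.4% of 13252 genes were called higher and 6.99% lower. In Dicer iKO, 2 of the 8 were called higher and 0 lower, where 7.37% of 13045 genes were called higher and 1.64% lower. The members' median log2 fold change was 0.77 in Dgcr8 iKO and 0.62 in Dicer iKO, against -0.01 over all genes in each. Sox2, Sox4 and Id2 passed an adjusted p of 0.05 in both lines, with Sox2 in Dicer iKO just under 2-fold. Sox11 and Pax3 did not pass the filter on low counts. Egr3 was at 19 to 35 counts in Dgcr8 iKO and 6 to 11 in its controls, and at 10 to 25 in Dicer iKO and 3 to 9 in its controls. It therefore entered these counts and medians through its iKO libraries, where it was high, and its place in them is not separate support.

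Sox4 measured 121, 90.5 and 118 CPM in Dgcr8 iKO and 6.59, 4.56 and 5.40 CPM in its controls. In Dicer iKO it measured 46.3, 75.1 and 73.4 CPM, and 18.2, 14.4 and 8.01 CPM in its controls. Neither line overlapped with its controls, and the Dicer controls were higher and more spread than the Dgcr8 controls. The log2 fold change of Sox4 was 4.30 in Dgcr8 iKO (SE 0.18, edgeR, adjusted p = 2.87e-07), or 19.7-fold, and 2.26 in Dicer iKO (SE 0.31, adjusted p = 0.00407), or 4.80-fold. Sox2 measured 32.9, 29.4 and 30.2 CPM in Dgcr8 iKO and 10.5, 6.57 and 9.45 CPM in its controls, and 18.2, 19.1 and 17.3 CPM in Dicer iKO and 8.33, 9.23 and 10.5 CPM in its controls. Sox2 thus stood apart in both lines, with log2 fold changes of 1.79 (SE 0.18, edgeR, adjusted p = 2.44e-05) and 0.96 (SE 0.15, adjusted p = 0.00669). Sox11 was at 4, 7 and 10 counts in Dgcr8 iKO and at 0, 1 and 2 in its controls, and at 0, 1 and 7 counts in Dicer iKO and at 0, 0 and 2 in its controls. Without the filter on low counts, the log2 fold change of Sox11 was 2.57 in Dgcr8 iKO (edgeR, adjusted p = 0.045) and 1.89 in Dicer iKO (adjusted p = 0.45). Pax3 had 0 counts in every Dicer library and at most 2 in the Dgcr8 libraries.

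Id2, which also rose after crush, rose in both iKO lines. It measured 64.2, 49.7 and 83.5 CPM in Dgcr8 iKO and 8.47, 6.70 and 6.03 CPM in its controls. In Dicer iKO it measured 25.1, 28.0 and 26.9 CPM, and 5.45, 3.88 and 3.39 CPM in its controls. All iKO libraries were above all controls, with log2 fold changes of 3.21 (SE 0.22, edgeR, adjusted p = 2.39e-06) and 2.65 (SE 0.20, adjusted p = 0.00111). Id1, a BMP-responsive Id gene, measured 6.59, 6.83 and 6.17 CPM in Dgcr8 iKO and 15.4, 13.3 and 13.4 CPM in its controls. It fell by 1.10 on the log2 scale in Dgcr8 iKO (SE 0.18, edgeR, adjusted p = 0.000514), to 0.465 of the control level. The 8 endothelial markers summed to 316 to 378 CPM in Dgcr8 iKO and 423 to 516 CPM in its controls, 4 of the 8 fell, and their part in the Id1 value was not tested. In Dicer iKO, Id1 measured 7.16, 7.48 and 10.999 CPM against 18.7, 14.6 and 9.78 CPM, which overlapped, with a log2 fold change of -0.74 (SE 0.28, edgeR, adjusted p = 0.104). Without Dicer control replicate 3, the value was -0.95 (adjusted p = 0.0293).

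Id3 and Id4 did not pass the test in either line. Id3 had log2 fold changes of 0.10 in Dgcr8 iKO (edgeR, adjusted p = 0.594) and 0.27 in Dicer iKO (adjusted p = 0.222). Id4 measured 10.6, 8.16 and 8.85 CPM in Dgcr8 iKO, all below the 13.2, 11.7 and 12.8 CPM of its controls, with a log2 fold change of -0.45 (edgeR, adjusted p = 0.0612), and -0.29 in Dicer iKO (adjusted p = 0.493). Egr1 was widely spread among Dicer controls at 49.96, 29.4 and 13.98 CPM, which enclosed the 30.6, 23.8 and 29.9 CPM of Dicer iKO. Its log2 fold changes were -0.14 in Dicer iKO (SE 0.39, edgeR, adjusted p = 0.826) and -0.01 in Dgcr8 iKO (adjusted p = 0.968). Egr3 measured 2.59, 3.32 and 2.21 CPM in Dgcr8 iKO and 0.706, 1.47 and 0.831 CPM in its controls, and rose by 1.45 (SE 0.40, edgeR, adjusted p = 0.0125). This call was lost without Dgcr8 control replicate 1 (1.247, adjusted p = 0.0633), without Dgcr8 control replicate 3 (1.31, adjusted p = 0.0547) and without Dgcr8 iKO replicate 2 (1.27, adjusted p = 0.0507). In Dicer iKO, Egr3 was at 3.31, 1.74 and 1.53 CPM against 1.29, 0.669 and 0.407 CPM, a log2 fold change of 1.49 (SE 0.54, edgeR, adjusted p = 0.0905).

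**Figure D3:**
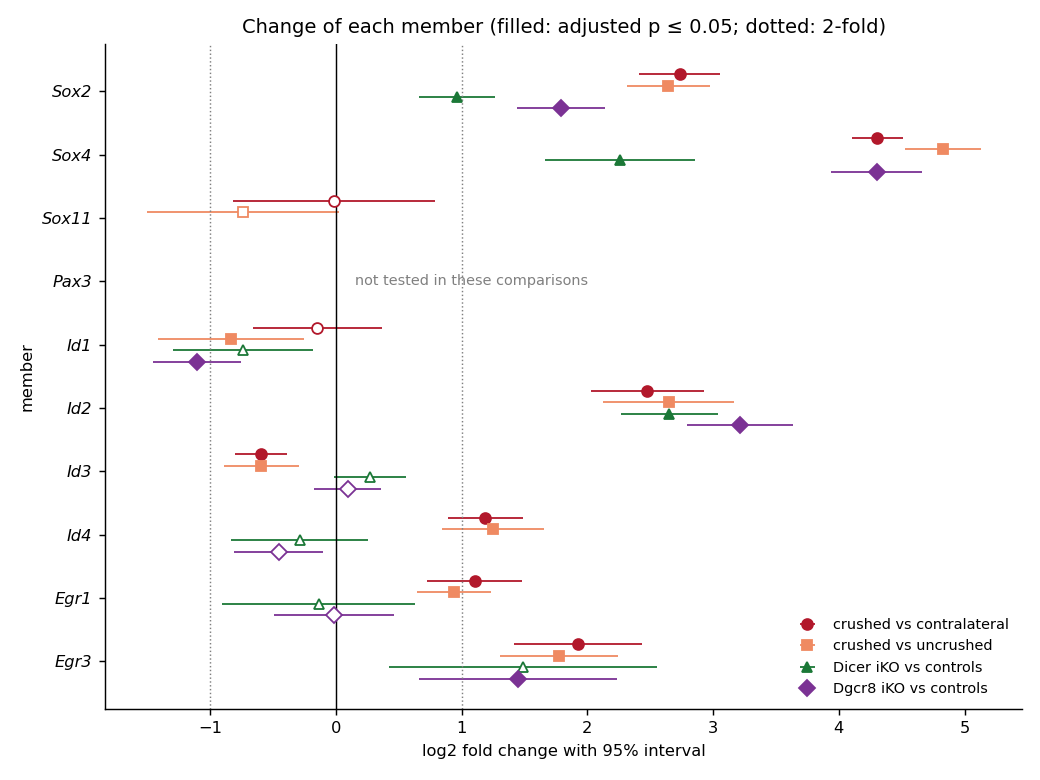
Log2 fold changes of the members that could be tested after crush and in the iKO lines, with approximate 95% intervals (1.96 SE on each side) and markers that separate values past an adjusted p of 0.05 from the rest. Sox4 reaches 4.31 after crush, 4.30 in Dgcr8 iKO and 2.26 in Dicer iKO, and Id2 lies between 2.48 and 3.21 in these comparisons.

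Whether Dgcr8 and Dicer loss differed was tested as an interaction, in which 0.00738% of 13552 genes had a larger and 0.00738% a smaller change in Dgcr8 iKO. By edgeR, 0 of the 8 members passed an adjusted p of 0.05. At an unadjusted p under 0.05 there were 2, Sox4 with a difference of 2.04 on the log2 scale (SE 0.38, 95% interval 1.30 to 2.79, adjusted p = 0.0997) and Sox2 with 0.83 (adjusted p = 0.172). DESeq2 called 1, Sox4 (2.06, adjusted p = 0.000208), and edgeR called it without Dicer control replicate 3 (2.31, adjusted p = 0.00414). That replicate was the Dicer control with the least Sox4. The difference for Id2 was 0.56 (edgeR, 95% interval -0.05 to 1.18, adjusted p = 0.452). Both intervals are approximate and narrower than the F test would give. Over all genes, 1038 were larger and 823 smaller at an unadjusted p under 0.05.

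**Figure D4:**
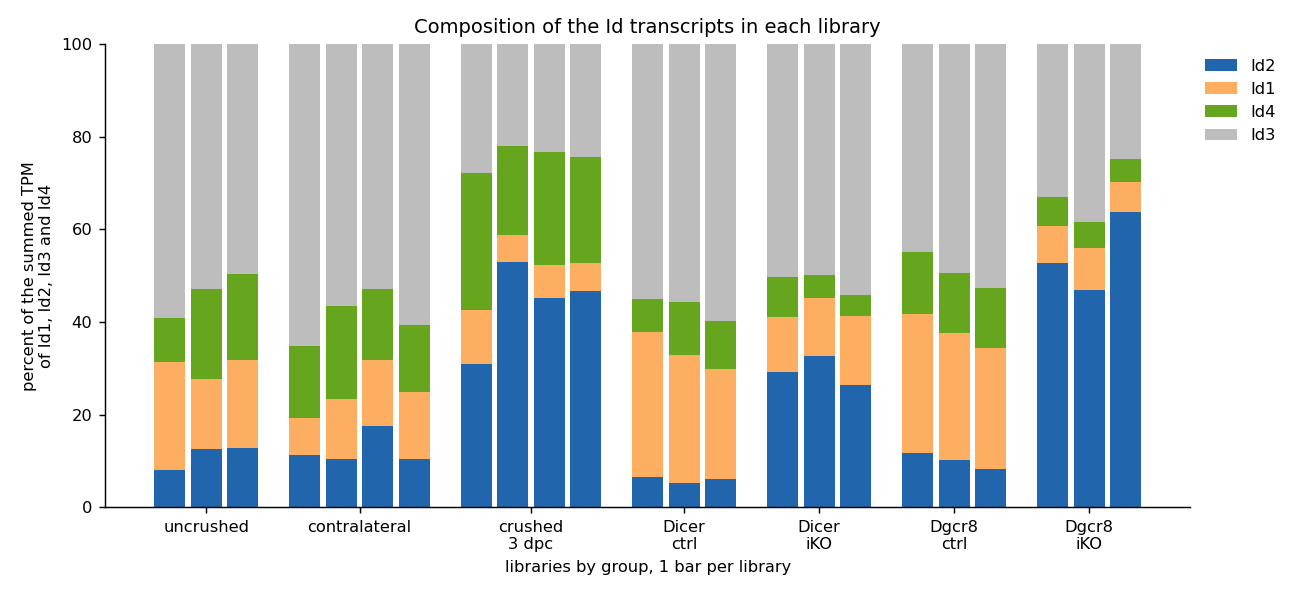
Share of each Id gene in the summed TPM of Id1, Id2, Id3 and Id4, in percent, with 1 bar per library from 0 to 100. Id2 takes 10.4% to 17.7% in contralateral and 31.0% to 52.9% in crushed SNs, and 46.9% to 63.8% in Dgcr8 iKO.

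The uneven changes shifted the make-up of the Id pool, which is described here without a test. In contralateral SNs, Id3 made up 52.9% to 65.2% of the summed Id TPM and Id2 10.4% to 17.7%. In crushed SNs, Id3 made up 22.1% to 27.9% and Id2 31.0% to 52.9%, so that no library of either group overlapped with the other. In Dgcr8 iKO, the Id2 share was 46.9% to 63.8% against 8.29% to 11.7% in controls, and the Id1 share was 6.49% to 8.97% against 26.0% to 30.1%. In Dicer iKO, the Id2 share was 26.4% to 32.6% against 5.30% to 6.44%, and Id3 kept the largest share at 49.8% to 54.1%. Set against their binding partners, the summed Id TPM over that of the E proteins Tcf3, Tcf4 and Tcf12 was 1.003 to 1.202 in Dgcr8 iKO and 0.869 to 0.951 in its controls. In Dicer iKO it was 0.689 to 0.846 against 0.604 to 0.736, and in crushed SNs 0.409 to 0.561 against 0.391 to 0.430 in contralateral SNs, both with overlap. The 3 E-protein genes themselves rose after crush against the contralateral side, by 0.63 (Tcf12), 0.43 (Tcf4) and 0.37 (Tcf3) on the log2 scale, and in Dgcr8 iKO by 0.42, 0.69 and 0.46, whereas none passed the test in Dicer iKO.

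**Figure D5:**
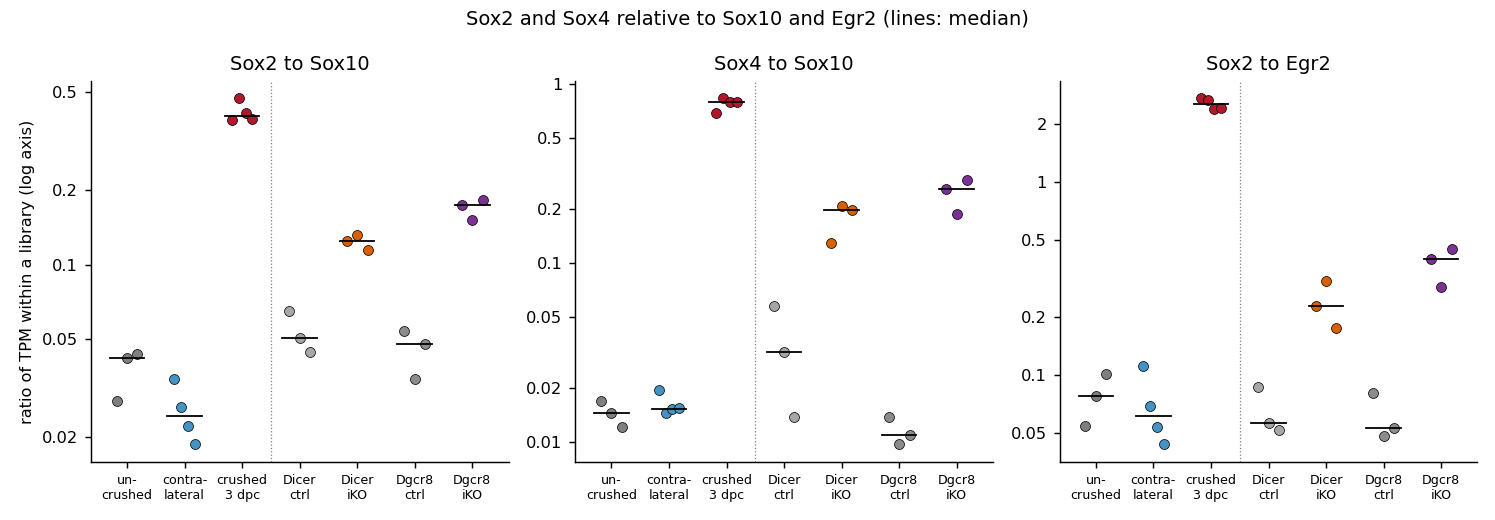
Ratios of Sox2 to Sox10, Sox4 to Sox10 and Sox2 to Egr2 in TPM on a log axis, with 1 point per library in each of the 7 groups. Sox2 to Sox10 lies at 0.385 to 0.472 in crushed SNs, above 0.0186 to 0.0342 in contralateral SNs, and at 0.151 to 0.183 in Dgcr8 iKO, above 0.0342 to 0.0537 in its controls; the labels give the crush and iKO libraries different kits, so ratios are compared within an experiment.

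Sox10 marks the SC lineage at all stages, so ratios to Sox10 set the SOX members beside a gene of the same cells. Sox2 to Sox10 in TPM was 0.385 to 0.472 in crushed, 0.0186 to 0.0342 in contralateral and 0.0279 to 0.0433 in uncrushed SNs. It was 0.151 to 0.183 in Dgcr8 iKO against 0.0342 to 0.0537 in controls, and 0.115 to 0.131 in Dicer iKO against 0.0443 to 0.0650 in controls. The iKO and crushed SNs were therefore each above their controls with no overlap. Sox10 itself fell by 1.29 on the log2 scale after crush against contralateral SNs and had log2 fold changes of -0.10 in Dgcr8 iKO (edgeR, adjusted p = 0.544) and -0.31 in Dicer iKO (adjusted p = 0.308). Sox4 to Sox10 was 0.696 to 0.836 in crushed against 0.0145 to 0.0194 in contralateral SNs, 0.189 to 0.291 in Dgcr8 iKO against 0.00968 to 0.0137, and 0.130 to 0.210 in Dicer iKO against 0.0138 to 0.0578. Sox2 to Egr2, an immature factor over the driver of myelination, was 2.40 to 2.72 in crushed SNs against 0.0436 to 0.111 in contralateral SNs. It was 0.286 to 0.449 in Dgcr8 iKO and 0.176 to 0.305 in Dicer iKO, each above the controls' 0.0485 to 0.0808 and 0.0517 to 0.0862. Neither Sox4 nor Id2 is restricted to SCs, and macrophage and proliferation markers were higher in the same 3 comparisons, with values given above. Markers of other cell types also differed. The 6 neutrophil markers summed to 21.8 to 37.7 CPM in crushed against 5.45 to 7.09 CPM in contralateral SNs, 19.1 to 31.6 against 1.90 to 6.17 CPM in Dicer iKO and controls, and 19.2 to 32.8 against 1.65 to 2.82 CPM in Dgcr8 iKO and controls, with Ly6g at 0 throughout the iKO experiment. S100a9, another of the 6 neutrophil markers, was at 0 in Dicer iKO. In crushed SNs, S100a8 was at 4 to 6 and S100a9 at 3 to 8 counts per library. Ly6g averaged 0.125 CPM in crushed and 0.137 CPM in contralateral SNs. These markers were a small part of the crush sum, which other genes of the list carried. Of the 6, 2 passed the filter on low counts after crush against contralateral SNs, 1 in Dicer iKO and 3 in Dgcr8 iKO. The 6 fibroblast markers summed to 16745 to 17342 against 5373 to 14152 CPM in Dicer iKO and controls and to 12903 to 16098 against 6211 to 7797 CPM in Dgcr8 iKO and controls. Their part in the results was not tested.

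A list of 14 other genes, chosen by name as possible brakes on myelination, was counted by the same rule. It was chosen with earlier results of these data known, and the study itself reports higher Jun and Ngfr transcripts in both iKO lines. Its counts are therefore a description and not independent support. A braking role is not established for all of them, among them Lgi4 and Hdac4. Of the 14, 6 were called higher and 2 lower after crush against contralateral SNs, 6 and 0 in Dgcr8 iKO, and 4 and 0 in Dicer iKO. Over all genes, the shares called higher and lower were 14.6% and 13.6% after crush, 13.4% and 6.99% in Dgcr8 iKO, and 7.37% and 1.64% in Dicer iKO, so the 2 called lower after crush were near the background. Ngfr, the low-affinity neurotrophin receptor, rose by 4.66 on the log2 scale after crush, by 2.43 in Dgcr8 iKO and by 1.37 in Dicer iKO. Ednrb, an endothelin receptor of immature SCs, rose by 2.87, 3.67 and 2.84 in the same order, Tgfb1 by 2.73, 1.96 and 1.77, and Jun, the regulator of the repair SC, by 2.68, 1.54 and 1.01. Hey2 fell by 2.18 and Map2k6 by 2.07 after crush. The median over the list was 0.66 after crush, 0.40 in Dgcr8 iKO and 0.09 in Dicer iKO.

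Of 14 drivers of myelination, 1 was called higher and 3 lower after crush against contralateral SNs, where 14.6% and 13.6% of all genes were, so these counts were not far from the background. At an adjusted p of at most 0.05 whatever the size, 3 rose and 9 fell, against 5586 and 5483 of the 16667 genes tested. Egr2 (-2.69), Sox10 (-1.29) and Nab2, a co-factor of EGR2 (-1.04), were lower and Pou3f1, which acts before Egr2, was higher (1.55). Zeb2, which represses Sox2 and other inhibitors, rose by 0.29. In Dgcr8 iKO 2 of 14 were called higher, near the background of 13.4%, with Pou3f1 at 1.55 and Srebf1 at 1.01, while Egr2 fell by 0.86 (edgeR, adjusted p = 0.00202). In Dicer iKO no driver was called in either direction, and Egr2 had a log2 fold change of -0.90 (edgeR, adjusted p = 0.0555). Of 12 myelin genes, 10 were called lower after crush, among them Ncmap (-6.18) and Pmp22 (-6.03), whereas Gjb1 was called higher (1.61). In Dgcr8 iKO 6 of the 12 were called lower, led by Drp2 (-2.01), and in Dicer iKO 0 of 12 were (2 fell by less than 2-fold).

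Few close relatives of the members could be tested, so they are described gene by gene. Of 6 paralogs (Sox1, Sox3, Sox12, Pax7, Egr2 and Egr4), 2 could be tested after crush against contralateral SNs. Both were called lower, Egr2 as above and Sox12, the remaining SOXC gene, by 1.55, where 13.6% of all genes were. Against uncrushed SNs, where 21.1% of all genes were called lower, Sox12 fell by 1.10 and Pax7 by 1.94. Pax7 was at only 4 to 7 counts per crushed and 9 to 21 per uncrushed library, so it passed the filter on low counts through the uncrushed libraries. In the iKO lines Sox12 had log2 fold changes of 0.48 (Dgcr8 iKO, edgeR, adjusted p = 0.125) and -0.43 (Dicer iKO, adjusted p = 0.375).

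Egr1 and Egr3 belong to the immediate early genes, which are switched on within minutes of a stimulus. Of 22 such genes tested after crush against contralateral SNs, 12 were called higher, among them Fosl1 (6.53), Atf3 (3.74) and Fos (3.39), and 3 lower, Egr2, Nr4a2 (-2.13) and Nr4a1 (-1.61), where 14.6% and 13.6% of all genes were, so that the count of lower genes was at the background. In Dgcr8 iKO 6 of 21 were called higher, led by Nr4a3 (2.04), Myc (2.03) and Fosl2 (1.76), against 13.4% of all genes, and 1 lower, Fosb (-2.35), against 6.99%. In Dicer iKO 3 of 20 were called higher, Atf3 (1.23), Myc (1.06) and Jun (1.01), against 7.37% of all genes. Genes of the BMP pathway, which switches on Id genes in many cells, were more often called lower than higher after crush. After crush against contralateral SNs 2 of its 20 tested genes were called higher, Acvr1 (1.36) and Smad7 (1.196), and 5 lower, among them Fst (-3.80), Smad9 (-2.08) and Bmp7 (-1.93), against 14.6% and 13.6% of all genes, so that the count of higher genes was not above the background. Against uncrushed SNs 2 of 20 were called higher and 8 lower, where 15.3% and 21.1% of all genes were. In Dgcr8 iKO 1 of 17 genes tested was called higher and 1 lower, against 13.4% and 6.99% of all genes. In Dicer iKO 2 of 19 were called higher and 1 lower, against 7.37% and 1.64%. Fst, a secreted antagonist of activin and BMP ligands, fell after crush but was called higher in Dgcr8 iKO (1.58) and Dicer iKO (1.16).

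For each member tested in the crush (against contralateral), Dicer iKO and Dgcr8 iKO comparisons, the genes with the most similar 3 log2 fold changes were found by Euclidean distance among 12124 genes. Sox4 had the most distant neighbours, Rrm2 (0.375) and Ccnf (0.451). Id2 was nearest to Hk3 (0.0777) and E2f2 (0.189), Sox2 to Acsl5 (0.132) and Hist1h3f (0.168), and Egr3 to Col2a1 (0.101) and Themis2 (0.120). Id1 was nearest to Mdm1 (0.0346) and Adgrf5 (0.123), Id4 to Rpl26 (0.143) and Shisa2 (0.171), Id3 to Bloc1s3 (0.0625) and Qrsl1 (0.0736), and Egr1 to Rbpj (0.0650) and Gfm1 (0.0716). The listed distances describe these 3 comparisons only.

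In the mouse genome (GRCm38, GENCODE M21) the SOX members are single-exon genes, with Sox2 at chr3:34650405-34652461, Sox4 at chr13:28948919-28953713 and Sox11 at chr12:27334264-27342574. Pax3 lies at chr1:78101267-78197134, Id1 at chr2:152736251-152737410, Id2 at chr12:25093799-25097140, Id3 at chr4:136143497-136145755, Id4 at chr13:48261228-48266026 and Egr3 at chr14:70077203-70082614. Values above are totals over all transcripts of each gene.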

How the data were processed

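Per the labels and the study's methods, the authors trimmed reads with Trimmomatic, aligned them with STAR to Ensembl GRCm38 and estimated transcript expression with RSEM. The deposited tables hold expected counts and TPM per transcript. The labels name a SMARTer pico kit for crush and TruSeq with Ribo-Zero for iKO libraries, the methods TruSeq for both, so levels were not tested across experiments. In the crush experiment a 5S rRNA transcript took 61.5% to 71.8% of the deposited TPM and protein-coding genes 2.70% to 8.19%, so TPM was also rescaled to protein-coding genes, a choice made after seeing the data.

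Expected counts were summed per gene, rounded and tested with edgeR 4.0.16 in R 4.3.3 (TMM, filterByExpr with minimum count 10, quasi-likelihood), in the groups compared, with Benjamini-Hochberg adjustment over all genes tested. Called genes had an adjusted p of at most 0.05 and a fold change of at least 2, in the interaction only the former. SEs were derived as the absolute log2 fold change over the square root of the F statistic. The 95% intervals took 1.96 SE on each side. They ignore the few degrees of freedom of the F test, so they are too narrow and can exclude 0 where the test does not pass. CPM used TMM over each experiment. The script was tested on simulated data. DESeq2 1.42.0 was an alternative. Members and gene lists were chosen with earlier results of these data known; all 10 members are named, and up to 3 called genes per list and direction with the largest change. One of these is not reported here. No 2 replicate libraries differed by as little as sampling noise (chi-square per degree of freedom 3.86 to 40.3 over 27 pairs).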

Additional observations from a re-analysis of the deposited data

How the results depend on the processing

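RLE normalization, no filter on low counts, DESeq2, the replicate block, all groups in one fit and leaving out each library were tried. Of the single-gene values that passed an adjusted p of 0.05, 266 passed in the same direction, 9 no longer passed and 0 reversed; without the filter Id1 and Id3 were lost against uncrushed SNs (-0.61, adjusted p = 0.0724; -0.37, adjusted p = 0.0809). With all groups in one fit, 1 member was called lower in crushed against uncrushed SNs, Pax3 (-1.225, adjusted p = 0.0389), and Id1 and Egr3 passed in Dicer iKO (adjusted p = 0.0359 and 0.0473). This count ran from 0 to 1 over the fits without 1 library, with Id1 (-1.12) called without crushed replicate 1 and Pax3 (-1.43) without uncrushed replicate 1. In the interaction, the higher calls were 1 without the filter and 1 with DESeq2, each Sox4 (2.05, adjusted p = 0.0347; 2.06, adjusted p = 0.000208), and ran from 0 to 1 without 1 library. Other counts without 1 library ran from 5 to 6 higher after crush against either control, 2 to 3 in Dicer iKO and 3 to 4 in Dgcr8 iKO. The causes were not tested.

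Reversals concerned values near 0 that had not passed. Without the filter, Sox11 (0.15) and Id1 (0.018) reversed after crush against contralateral SNs and Id4 (0.0052) in contralateral against uncrushed SNs. Over the fits without 1 library, the contralateral against uncrushed values ran from -0.47 to 0.03 (Egr3), -0.14 to 0.18 (Id2), -0.17 to 0.11 (Id3) and -0.26 to 0.092 (Id4), Sox11 after crush from -0.27 to 0.19, Egr1 from -0.49 to 0.38 (Dicer iKO) and -0.26 to 0.24 (Dgcr8 iKO), and the interaction from -0.40 to 0.48 (Egr1), -0.58 to 0.40 (Egr3) and -0.36 to 0.14 (Id4).

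No pairing by replicate number was clear: same-numbered deviations correlated at -0.191 to 0.216, and 2 of 4 crushed libraries correlated best with their own number among contralateral ones. So few libraries cannot tell whether same-numbered crushed and contralateral SNs came from the same mouse. With the replicate block, Egr1 in Dicer iKO reversed to 0.0036 and the members past an adjusted p of 0.05 stayed at 7, 8, 0, 3, 5 and 0 in the 6 comparisons. The summed member TPM depends on the scaling: as deposited it averaged 16.3 in crushed, 4.35 in contralateral and 3.08 in uncrushed SNs, over genes listed in both experiments 5.64 in contralateral and 4.03 in uncrushed SNs, and over protein-coding genes 254.1, 80.0 and 84.8. At 0 to 16 counts per library, whether Pax3 and Sox11 were tested and called depended on the filter and the libraries fitted; without the filter Sox11 passed in Dgcr8 iKO (2.57, adjusted p = 0.045).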

Other observations

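Transcripts of Id1 and Egr1 were used unevenly, as estimated by RSEM and pooled over each group's libraries. The longer Id1 transcript of 1160 bases took 37.6% of Id1 counts in contralateral, 22.2% in uncrushed and 2.51% in crushed SNs, and 17.2% in Dicer control, 8.39% in Dicer iKO, 14.2% in Dgcr8 control and 12.9% in Dgcr8 iKO SNs. These shares rest on 16 to 40 Id1 counts per crushed library. The shorter Egr1 transcript of 3036 bases took 70.3% to 83.5% of Egr1 counts in all groups except the Dicer controls, where it took 57.5%. Id2 and Id4 counts came from a single transcript each, and no test of transcript use was run.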
